A study of Homo sapiens with 12 samples.

Results

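In tumours of the breast cancer line MDA-MB-231, inhibitors of the kinase p38 and of the methyltransferase EZH2 were given alone and together, and 3 genes departed from the sum of the single changes. The measure was the interaction on the log2 scale, which is the combination minus p38i minus EZH2i plus control. It used 12 of the 12 libraries of the series in a single fit, with 3 libraries in each of the 4 groups. A value of 0 means that the folds of the single agents multiply. ITGA10, an integrin alpha subunit that binds collagen, and FAM155A, an auxiliary subunit of the NALCN sodium leak channel, passed the test with positive values. HSPH1, the HSP110 chaperone, passed with a negative value. In each of these genes the combination fell short of the sum, and no gene in which it exceeded the sum passed. That direction is a description, because the interaction and the sum share most of their libraries.

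The tumours grew from MDA-MB-231, an established human triple-negative breast cancer line, so the whole series rests on 1 cell line. They were seeded in the right inguinal mammary fat pad with 50 µl of Matrigel, in 10 mice per group, and dosing began at 100 mm3 according to the labels. All 4 groups were injected intraperitoneally on 5 days a week. Vehicle alone, made with DMSO at 4%, PEG300 at 30% and Tween 80 at 5%, went to the control mice. Mice called p38i were given 1 mg/kg/day of SB202190. Those called EZH2i were given 10 mg/kg/day of the EZH2 inhibitor EPZ-6438, also spelled EPZ-6428 in the labels. Mice of the combination group were given both, and its doses are not repeated in the labels. The strain and age of the mice and the length of treatment are not given in the sources used here. Such tumours also hold mouse stroma, and whether mouse reads were removed is not stated.

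The p38 kinases are MAP kinases that respond to stress and cytokines. They phosphorylate transcription factors and the kinase MAPKAPK2, which stabilises transcripts of inflammatory genes. EZH2 is the catalytic subunit of Polycomb repressive complex 2 (PRC2), which methylates lysine 27 of histone H3 and holds target genes silent. The title of the series links the pair, since it describes p38 activation through lysine methylation by phosphorylated EZH2. Both drugs act on proteins, so no transcript level checks that a library belongs to its treated group. EZH2 itself had an interaction of -0.56 (SE 0.281, edgeR adjusted p = 0.413), and MAPK14, the gene of p38 alpha, had -0.39 (SE 0.250, adjusted p = 0.545).

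Library totals ran from 2208771 to 4467942 counts. Levels are given in CPM after TMM scaling, where 1 CPM is 1e-04% of a library's scaled total. The cell type markers and their sums are the exception, in CPM of the unscaled library total. The 10 markers of the labelled cell type summed to 8660 to 12000 CPM. Of these, VIM stood highest at 3780 to 6610 CPM and KRT8 was at 27.7 to 60.4 CPM. PLAU, on the same list, varied most between libraries, from 14.1 to 716 CPM. Among markers of other breast cancer types, the luminal genes ESR1, PGR and FOXA1 reached 13.6, 7.24 and 11.7 CPM. GATA3, also luminal, stood higher at 24 to 42.4 CPM, and ERBB2 at 17.1 to 30.3 CPM. KRT5, KRT14 and TFF1 were at no more than 2.33, 4.83 and 1.01 CPM. 1 p38i library, called col6, held 1620 CPM of summed skeletal muscle markers, against 47.5 to 151 in the other 11. No label names the column of col6, which was placed among the p38i tumours by elimination. Another library, col5, has a column named by 2 p38i samples, so its tumour number is not known. Of the other marker lists, 4 of 7 neutrophil genes (S100A9, CSF3R, FCGR3B and ELANE) were at 0 in all libraries, as were the lymphocyte genes NKG7 and GZMB. Endothelial markers summed to 160 to 297 CPM in the controls and 242 to 404 in the treated libraries. MALAT1, a nuclear RNA, took 3.12% to 3.88% of the counts in controls and 1.47% to 2.82% in treated libraries. The part of these differences in the results was not tested. The titles give each sample a number of its own, and the samples are taken here as separate tumours. In each group some samples share the first part of that number, and what its parts stand for is not stated. In bulk tissue, fewer cells of a type and less RNA per cell cannot be told apart.

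Of 12514 genes tested, 3 passed the interaction test at an adjusted p under 0.05, which is 0.024% of all. The 2 positive calls were 0.016% and the negative call 0.00799%. At an unadjusted p under 0.05 there were 1644 genes, or 13.1%, made up of 775 positive (6.19%) and 869 negative (6.94%) values. Values of any size were positive in 49.3% and negative in 50.7% of genes. The median interaction over all genes was -0.01 with quartiles of -0.34 and 0.34, and the median standard error was 0.359. The typical standard error was thus as large as the quartiles of the values.

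ITGA10 stood at 314, 256 and 231 CPM in the control tumours. It stood at 79.4, 69.8 and 70.0 CPM with p38i, and at 83.3, 68.9 and 102 CPM with EZH2i. The combination gave 85.0, 115 and 83.2 CPM. All 9 treated libraries were below all controls, and the combination lay above all p38i values and overlapped EZH2i. ITGA10 fell by 1.87 on the log2 scale with p38i, by 1.66 with EZH2i and by 1.49 with both (adjusted p = 0.00974), the single gene that passed for the combination against control (0.00799%). Multiplying the single folds would place the combination at 23.2 CPM, while the measured mean was 94.5 ± 18.1 CPM (SD, n = 3). The interaction was 2.04 (SE 0.263, 95% interval 1.475 to 2.598, edgeR adjusted p = 0.00815).

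FAM155A had a different order of groups. Its control values were 36.6, 33.9 and 43.4 CPM. With p38i it stood at 12.95, 13.2 and 13.5 CPM, and with EZH2i at 15.4, 11.9 and 15.7 CPM. The combination gave 24.0, 27.5 and 21.3 CPM, between the controls and the single agents with no overlap on either side. FAM155A fell by 1.52 with p38i (adjusted p = 0.0092) and by 1.42 with EZH2i (adjusted p = 0.0166) on the log2 scale, while its change with both was -0.64 (adjusted p = 0.192). The expected level was 5.00 CPM and the measured mean was 24.3 ± 3.10 CPM, or 4.86 times as high. The interaction was 2.30 (SE 0.283, 95% interval 1.69 to 2.90, edgeR adjusted p = 0.00815). The combination minus p38i was 0.88 and the combination minus EZH2i 0.77, and neither passed on its own (adjusted p = 0.575 and 0.991).

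HSPH1, which helps to release and refold aggregated proteins with HSP70, went the other way. It stood at 127, 112 and 135 CPM in controls, at 305, 217 and 220 CPM with p38i, and at 322, 326 and 312 CPM with EZH2i. The combination gave 195, 211 and 233 CPM. The combination values were above all controls and below all EZH2i values, and they overlapped those of p38i. HSPH1 rose by 0.99 with p38i (adjusted p = 0.0164) and by 1.36 with EZH2i (adjusted p = 0.0022), and its change with both was 0.77 (adjusted p = 0.104). The additive level was 635 CPM and the measured mean 213 ± 19.2 CPM. The interaction was -1.58 (SE 0.221, 95% interval -2.05 to -1.11, edgeR adjusted p = 0.0142). The call was lost without control 1-3 (adjusted p = 0.112), without combination 8-1 (0.0532) and without combination 9-1 (0.0822). ITGA10 and FAM155A passed in each of the 20 alternative fits tried.

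**Figure D1:**
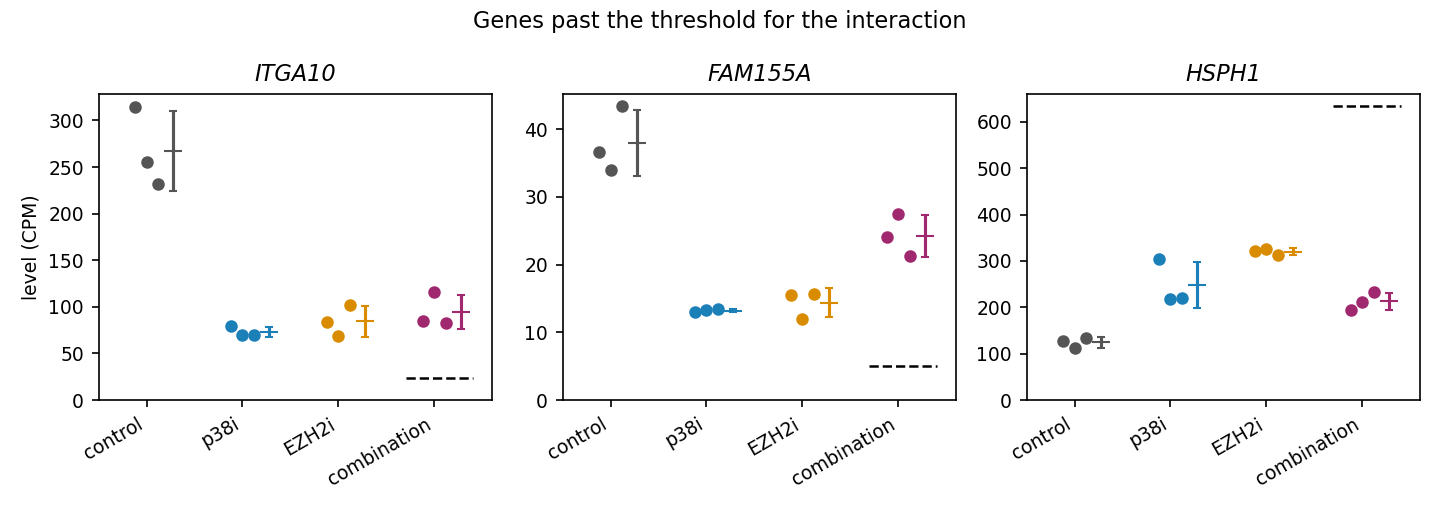
Level in CPM (y axis) of ITGA10, FAM155A and HSPH1 in each of the 12 libraries, by group (x axis). Points are single tumours, the bars beside them are the mean ± SD of 3, and the dashed line is the level at which the folds of the single agents would multiply. The measured combination lay above that line in ITGA10 and FAM155A (94.5 against 23.2 CPM and 24.3 against 5.00 CPM) and below it in HSPH1 (213 against 635 CPM).

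The direction of non-additivity was almost uniform among the genes with the smallest p-values. A gene falls short where the interaction has the sign opposite to the sum of the single changes, and exceeds where the signs match. Of the 1644 genes with an unadjusted p under 0.05, 1641 fell short and 3 exceeded. Among all 12514 genes the split was 10337 against 2177. This split is a description and not evidence, because the interaction and the sum of single changes share 9 of their 12 libraries. With equal spread and no true change at all, the contrasts alone give these measures a correlation of -0.816. In 4225 of all genes, and 1341 of the 1644, the combination differed from control by less than either single agent did. In 8286 of all genes, and 1347 of the 1644, it changed in the same direction as both single agents. The rule goes by sign alone, so a gene with a small sum can fall short although the combination moved further. F3, tissue factor, counts as falling short with means of 143 CPM in controls, 145 with p38i, 112 with EZH2i and 328 with both.

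**Figure D2:**
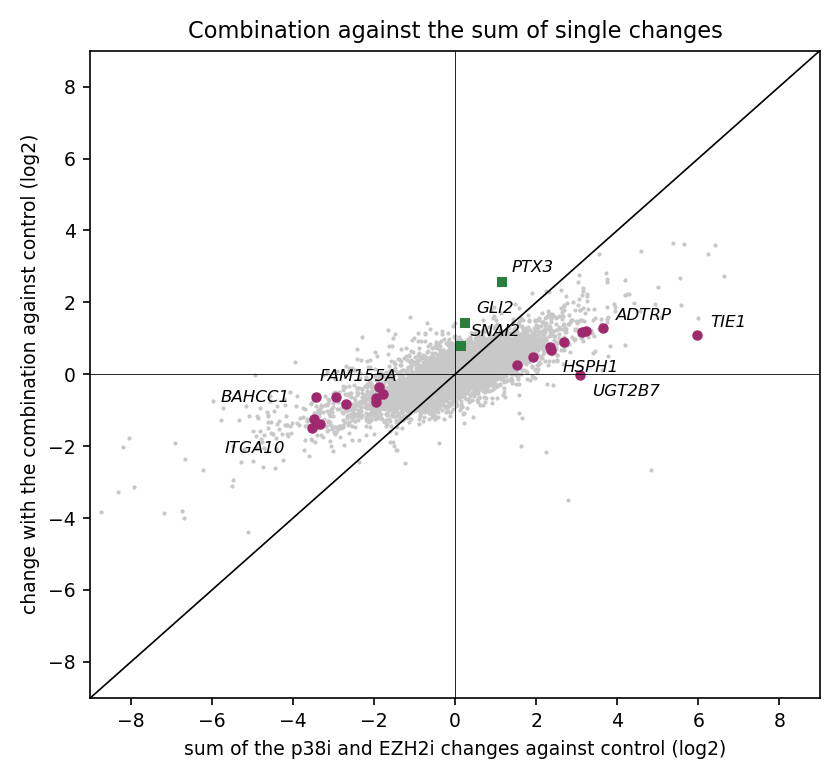
Change with the combination against control (y axis, log2) plotted on the sum of the p38i and EZH2i changes against control (x axis, log2) for 12514 genes. The diagonal marks additivity, purple circles are the 20 genes with the smallest interaction p (10 per direction) and green squares the 3 genes that exceeded the sum at an unadjusted p under 0.05. The cloud is flatter than the diagonal, and the axes share control libraries.

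The single agents gave the setting for these values. Against control, p38i changed 221 genes (1.77%; 82 higher, 0.655%, and 139 lower, 1.11%) and EZH2i changed 27 (0.216%; 11 higher, 0.0879%, and 16 lower, 0.128%). The combination changed 1 gene. With edgeR 0 genes passed for the combination against p38i, where 977 genes had an unadjusted p under 0.05 and DESeq2 called 7. Against EZH2i the edgeR count was also 0, with 391 genes at an unadjusted p under 0.05 and 1 by DESeq2. These counts share libraries and are given side by side only.

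The genes that passed with both single agents in the same direction numbered 23 (0.184% of those tested), 9 higher and 14 lower. All 23 fell short, and in 21 of them the combination change was smaller than either single change. In 0 of the 23 did the combination overlap the controls. Over all 12514 genes these counts were 10337, 4225 and 9766. The 23 were chosen on control and single-agent libraries that the interaction also uses. Falling short was thus largely set by that choice and is not evidence. The median of the 9 higher genes was 1.34 with p38i, 1.37 with EZH2i and 1.17 with both. For the 14 lower genes it was -1.51, -1.45 and -1.03. SLC37A2, a sugar-phosphate transporter, was one of the exceptions, at -1.50 and -1.49 with the single agents and -1.60 with both. It stood at 97.8 to 113 CPM in controls, 34.5 to 44.0 with p38i, 23.4 to 57.7 with EZH2i and 32.3 to 41.0 with both.

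Of the 20 genes with the smallest interaction p in their direction, 10 per direction, 14 were also among those 23. Both choices use the control and single-agent libraries, so some overlap is built in. Besides the 3 called genes, 17 missed the threshold with adjusted p between 0.0635 and 0.0747, and they are given as values. On the positive side BAHCC1 had the largest value at 2.78, with 30.3 to 42.4 CPM in controls, 8.86 to 10.3 with p38i, 5.72 to 16.6 with EZH2i and 17.3 to 31.4 with both. The combination overlapped the controls there and was apart from both single agents. ETV6, a transcriptional repressor of the ETS family, stood at 172 to 202 CPM in controls, 85.5 to 102 with p38i, 96.2 to 122 with EZH2i and 120 to 139 with both. ETV6 fell with p38i (-0.97, adjusted p = 0.0156) and with EZH2i (-0.81, adjusted p = 0.0411), and its interaction was 1.22. SMAD6, an inhibitor of BMP signalling, stood at 20.4, 23.4 and 16.8 CPM in controls, at 7.16 to 8.07 with p38i, at 7.21 to 8.94 with EZH2i and at 12.0, 9.69 and 12.2 with both. It was intermediate with the combination and overlapped no other group.

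CMTM8 followed the same order, with 59.3 to 73.3 CPM in controls, 29.3 to 40.2 with p38i, 36.7 to 38.3 with EZH2i and 45.1 to 59.4 with both. The combination was above every single-agent library and touched the lowest control. METTL7A, CYB561, C9orf89 and C19orf18 completed the positive side, with interactions of 1.94, 1.18, 1.29 and 2.26. In these 4 genes the treated groups lay below every control.

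On the negative side CXCR4, the chemokine receptor for CXCL12, rose with p38i (1.58, adjusted p = 0.0164) and with EZH2i (1.65, adjusted p = 0.0354). Its controls stood at 66.6, 59.4 and 67.3 CPM, p38i at 209, 182 and 190, and EZH2i at 181, 236 and 188. The combination gave 102, 108 and 234 CPM. The third of these, combination 9-2, was at the single-agent level while the other two were between. Without that library CXCR4 passed, with the smallest p of any gene. Its interaction over all libraries was -2.04 (SE 0.362, edgeR adjusted p = 0.0671).

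UGT2B7, an enzyme that adds glucuronic acid to steroids and drugs, had 2.70 to 5.41 CPM in controls, 8.32 to 11.6 with p38i, 6.91 to 15.4 with EZH2i and 2.51 to 4.18 with both. The combination overlapped the controls and lay below all single-agent libraries, and the interaction was -3.11. ADTRP, a regulator of tissue factor pathway inhibitor, stood at 34.5 to 71.8 CPM in controls, 147 to 205 with p38i, 126 to 262 with EZH2i and 97.0 to 144 with both. ADTRP rose with each single agent (adjusted p = 0.0164 and 0.0398), and its interaction was -2.38. ST3GAL6, a sialyltransferase, ADAMTS6, a secreted metalloprotease, and CSRP2, a LIM-domain protein, rose with both single agents too, with interactions of -1.68, -1.80 and -1.96. The sodium channel SCN9A and the tubulin acetyltransferase ATAT1 had -1.44 and -1.29. TIE1, an endothelial receptor kinase, had -4.89 on no more than 7.10 CPM in any library. Its value thus rested on few counts.

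Other genes were grouped in named lists. A list is described by its count of members with an unadjusted p under 0.05 and its median, to be read against 6.19% positive, 6.94% negative and a median of -0.01 over all genes. The lists were chosen with results of these data known, so these counts support no theme beyond the genes named.

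The heat shock genes encode chaperones and co-chaperones that hold unfolded proteins and are transcribed under HSF1. Of 18 members tested, 17 had a negative interaction and 14 had an unadjusted p under 0.05, all negative, with a median of -0.76. HSPH1 was the member past the adjusted threshold. Without p38i col6 the count was 13 of 18, and without combination 9-1 it was 12 of 19 tested. The list's median change was 0.47 with p38i, 0.51 with EZH2i and 0.20 with the combination. In 12 of the 18 the combination mean was below both single-agent means. The share of all genes with this order was not counted, so it cannot be read as a trait of the list.

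DNAJB1, an HSP40 co-chaperone, stood at 316, 264 and 262 CPM in controls, at 654, 488 and 356 with p38i, at 723, 511 and 447 with EZH2i and at 377, 327 and 352 with both. The combination lay above the controls, below EZH2i and across the lowest p38i library. Its interaction was -1.50 (SE 0.303). HSPA1A, the inducible HSP70, stood at 66.6, 57.6 and 126 CPM in controls, at 310, 177 and 154 with p38i, at 288, 302 and 252 with EZH2i and at 148, 235 and 184 with both. It rose with p38i (adjusted p = 0.0469) and EZH2i (adjusted p = 0.0411), and its interaction was -1.91. HSPA1A and HSPA1B (-1.71) are near-identical copies whose reads the counting could have split either way, so the values of both are uncertain.

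HSPB1, a small heat shock protein, stood at 169, 168 and 169 CPM in controls and at 182, 195 and 129 with both drugs. With p38i it was at 299, 227 and 190 CPM and with EZH2i at 436, 290 and 213. The combination overlapped the controls, and the interaction was -1.39. The HSP90 gene HSP90AB1 (-0.78), the immunophilin FKBP4 (-1.26), the HSP110 relative HSPA4L (-0.90) and the HSP90 co-chaperone CHORDC1 (-0.87) had the same sign. CHORDC1 differed in its levels, at 51.6 to 69.3 CPM with both against 42.5 to 68.8 with p38i and 66.8 to 75.2 with EZH2i. BAG3, a co-chaperone in the same list, had the opposite sign at 0.75 (SE 0.638), and HSPA8, the constitutive HSC70, had -0.09 (SE 0.538).

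HSF1 binds repeats of the pentamer nGAAn, and a pair facing each other reads GAANNTTC or TTCNNGAA. Each motif reads the same on both strands, and the motifs can overlap. In RefSeq promoter windows of GRCh38.p14, from 250 bases before to 50 after the start site, 17 of the 18 heat shock genes were found. Either motif occurred in 6 of 17 (35.3%), against 13.7% of 27305 windows, and 3 of 17 (17.6%) held more than one match, against 1.7%. The windows of HSPH1, the called gene, and of CHORDC1, which had the most matches, are shown because they differ in this respect while both genes had negative interactions. HSPH1 (chr13:31162339-31162638, minus strand) held no match, which says only that these letters are absent from this window. CHORDC1 (chr11:90223000-90223299, minus strand) held 6, the first starting 205 bases and the last 23 bases before the start site. Capitals mark the matches, and a match is a description of letters and not of binding.
HSPH1: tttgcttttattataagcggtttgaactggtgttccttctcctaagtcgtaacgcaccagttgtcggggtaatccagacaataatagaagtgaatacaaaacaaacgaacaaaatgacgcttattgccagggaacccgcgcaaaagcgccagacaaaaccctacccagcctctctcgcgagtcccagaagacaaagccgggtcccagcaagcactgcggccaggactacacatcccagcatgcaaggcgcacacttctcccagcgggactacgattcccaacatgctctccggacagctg
CHORDC1: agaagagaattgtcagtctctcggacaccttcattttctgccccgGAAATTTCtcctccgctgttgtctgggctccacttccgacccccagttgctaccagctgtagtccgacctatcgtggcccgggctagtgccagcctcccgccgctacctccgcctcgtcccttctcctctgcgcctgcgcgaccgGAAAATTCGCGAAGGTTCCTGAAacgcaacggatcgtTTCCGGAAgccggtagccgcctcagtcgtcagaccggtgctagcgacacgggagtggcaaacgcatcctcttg

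The glucocorticoid-responsive genes are induced by steroid hormone through the glucocorticoid receptor. Of 17 tested, 16 had a positive interaction, 10 with an unadjusted p under 0.05, and 1 had a negative value under that limit. The median interaction was 1.01, and the median change was -0.72 with p38i, -0.75 with EZH2i and -0.53 with both. Without p38i col6 the count was 9 positive and 1 negative. It was 8 positive without p38i col5, combination 8-1 or combination 9-1. No member passed the adjusted threshold.

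FKBP5, a co-chaperone that damps the glucocorticoid receptor, stood at 193, 142 and 84.6 CPM in controls, at 20.4, 39.2 and 58.2 with p38i, at 17.1, 17.9 and 30.6 with EZH2i and at 35.2, 47.3 and 48.6 with both. The combination was below the controls, above EZH2i and within the range of p38i. FKBP5 fell with each single agent (adjusted p = 0.0331 and 0.0223), and its interaction was 2.83 (SE 0.525, edgeR adjusted p = 0.0710). SCNN1A, a subunit of the epithelial sodium channel, stood at 284, 279 and 152 CPM in controls and at 31.8 to 104 CPM over all 9 treated libraries, with an interaction of 2.59. TSC22D3 (GILZ), which mediates anti-inflammatory effects of glucocorticoids, stood at 748, 353 and 345 CPM in controls and at 86.1 to 266 in treated libraries, with an interaction of 2.21. In both genes the treated groups overlapped one another and stayed below the controls.

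KLF9, a zinc-finger transcription factor, and ANGPTL4, an inhibitor of lipoprotein lipase, had interactions of 1.57 and 1.59. GLUL, glutamine synthetase, stood at 28.9 to 37.8 CPM in controls, 23.2 to 28.3 with p38i, 22.8 to 33.1 with EZH2i and 34.6 to 42.3 with both, for an interaction of 0.84. SGK1, a kinase induced by the same hormone, was the negative member at -0.47 (SE 0.204), with changes of 0.43, 0.84 and 0.79 with p38i, EZH2i and both.

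**Figure D3:**
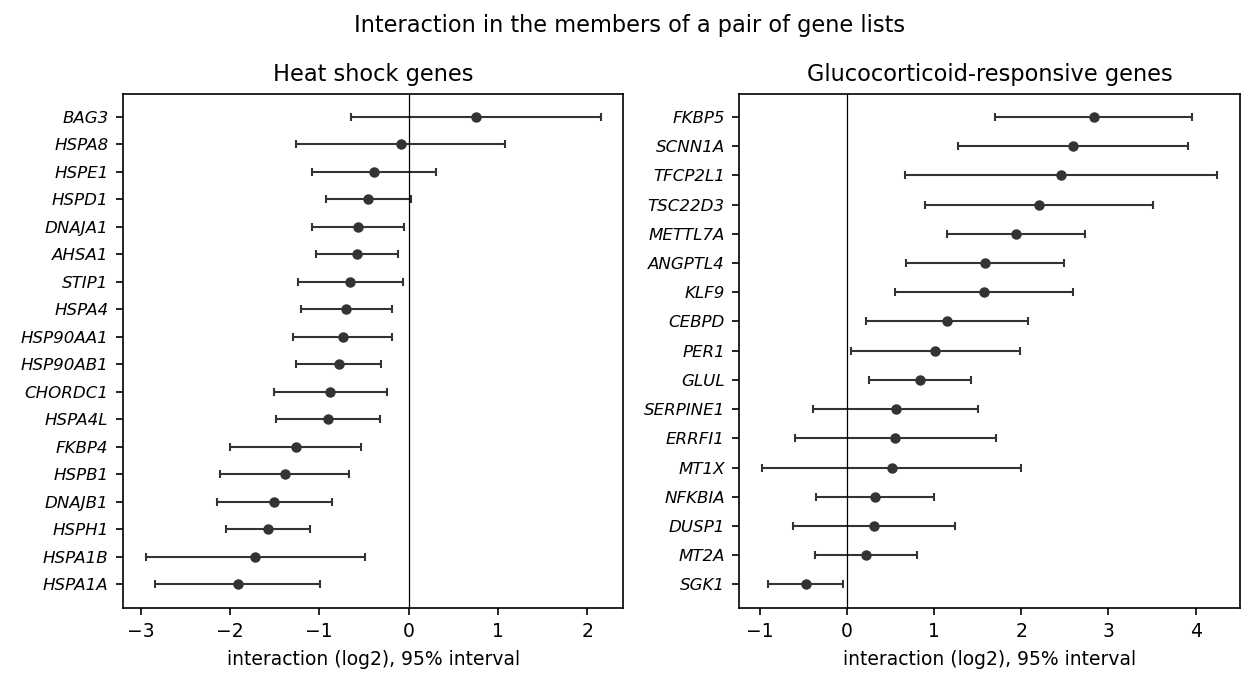
Interaction (x axis, log2) of each tested member (y axis) of the heat shock list and the glucocorticoid-responsive list, with bars for the 95% interval. In the first list 17 of 18 values are negative and BAG3 is positive. In the second 16 of 17 are positive and SGK1 is negative.

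The BMP and ID genes hold the receptors, SMADs and ID proteins of the BMP pathway, in which ID1 and ID3 are direct targets that block differentiation factors. Of 18 tested, 16 were positive and 4 had an unadjusted p under 0.05, all positive, with a median of 0.48. ID1 stood at 181, 207 and 272 CPM in controls, at 30.3, 30.6 and 43.3 with p38i, at 82.9, 22.4 and 86.0 with EZH2i and at 82.9, 172 and 70.3 with both. The combination was below the controls, above p38i and across EZH2i, and its spread was wide. ID1 fell with p38i (adjusted p = 0.0297), changed by -1.81 with EZH2i (adjusted p = 0.128) and had an interaction of 3.45 (SE 0.651). ID3 stood at 479, 326 and 259 CPM in controls, 40.9 to 84.7 with p38i, 44.0 to 152 with EZH2i and 66.5 to 190 with both, for an interaction of 3.30. ATOH8, a transcription factor, had 3.55, with 0 to 6.10 CPM in all treated libraries against 12.6 to 22.8 in controls. SMAD6 is described above. NOG, a secreted BMP antagonist, had the opposite sign at -1.37 (SE 0.661).

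Genes of cell division had median levels above control in all treated groups. Of 27 genes of the G2 and M phases 26 had a negative interaction, 10 with an unadjusted p under 0.05, and the median was -0.70. Their median change was 0.78 with p38i, 0.60 with EZH2i and 0.68 with the combination, so the combination lay between the single agents. The count of 10 ran from 7 to 21 with 1 library left out. It was 21 without control 2-1, 20 without p38i 3-3 and 17 without EZH2i 5-3, and it was 7 without p38i col6, control 1-1, EZH2i 5-4 or combination 9-1. SKA1, a kinetochore protein, stood at 3.90 to 4.98 CPM in controls, 12.3 to 16.8 with p38i, 6.51 to 20.4 with EZH2i and 6.28 to 10.3 with both, with an interaction of -2.21. NDC80, another kinetochore protein, had -1.56, the motor protein KIFC1 had -1.98 and the anaphase activator CDC20 had -1.28. KIFC1 was at 252 CPM in p38i col6 and at 80.4 and 98.8 in the other p38i libraries.

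In the S phase list 19 of 22 values were negative and 4 had an unadjusted p under 0.05, with MCM3, a subunit of the replicative helicase, at -0.96. Left out 1 at a time, control 1-1, p38i col6, EZH2i 5-4 and combination 9-1 each brought this count of 4 to 1, control 1-3 and combination 9-2 to 2, and control 2-1 and combination 8-1 to 7. The replication-dependent histone genes, whose transcripts mostly lack poly(A) tails, had a median of -1.05, the lowest of the 30 lists other than cell type markers, with 10 of 11 negative and 4 under an unadjusted p of 0.05. HIST1H1C, a linker histone, stood at 81.6, 76.3 and 83.4 CPM in controls, at 151, 147 and 210 with p38i, at 110, 150 and 137 with EZH2i and at 138, 79.7 and 92.9 with both. Its interaction was -1.43 (SE 0.294, edgeR adjusted p = 0.0783). Combination 8-1 was apart from the other two there, and without that library 8 of the 11 histone genes had an unadjusted p under 0.05. Cholesterol and fatty acid synthesis had 22 of 25 negative values with a median of -0.33, 4 of them under that limit. Without EZH2i 5-4 the count was 1 and the median -0.08, and without control 1-1, p38i col5 or combination 9-2 the count was 2.

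**Figure D4:**
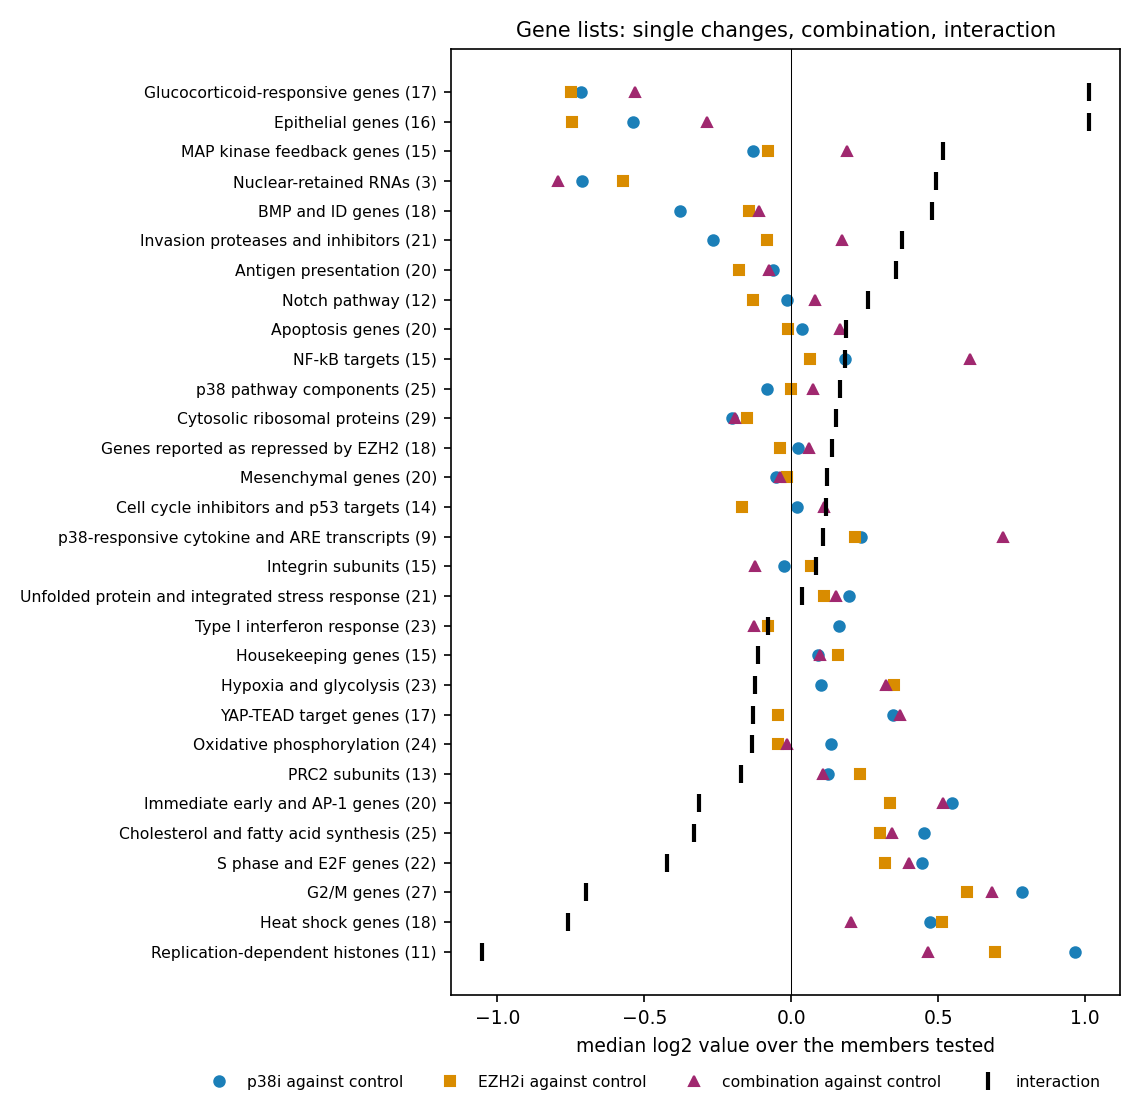
Median log2 change against control with p38i (circles), EZH2i (squares) and the combination (triangles), and median interaction (bars), for 30 gene lists ordered by the last, with the number of members tested in brackets. The interaction runs from -1.05 for the histone genes to 1.01 for the glucocorticoid-responsive genes, and the triangles mostly lie near the circles and squares.

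In 3 lists for the targeted pathways, the members under an unadjusted p of 0.05 lay on both sides. Their shares were 12% for the p38 pathway, 15.4% for PRC2 subunits and 22.2% for genes reported as repressed by EZH2. Over all genes the share was 13.1%. Among 25 genes of the p38 pathway 16 values were positive and 9 negative, with 1 and 2 under an unadjusted p of 0.05. MAPK13, the gene of p38 delta, had -0.69. Of 13 PRC2 subunits 6 were positive and 7 negative, with 1 on each side under that limit. These were AEBP2, an accessory subunit (0.77), and MTF2 (-0.53). Of 18 genes reported as repressed by EZH2, 9 were positive and 9 negative, 2 on each side under the limit. GATA6, a transcription factor, stood at 1.50 to 2.61 CPM in controls, 6.13 to 7.34 with p38i, 5.29 to 7.21 with EZH2i and 4.98 to 6.38 with both, for an interaction of -1.90. TIMP3, a metalloprotease inhibitor, stood at 3566 to 6215 CPM in controls, 1356 to 2177 with p38i, 2061 to 2779 with EZH2i and 1728 to 4011 with both, for an interaction of 1.67. These genes passed with p38i (adjusted p = 0.0331 for each) and moved in opposite directions.

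Negative feedback genes of the MAP kinases, the DUSP phosphatases and Sprouty proteins, had 13 of 15 positive values and 2 under an unadjusted p of 0.05. DUSP4 stood at 1876 to 2150 CPM in controls and 697 to 1512 in the 9 treated libraries, with an interaction of 0.90. SPRED1 had 0.52. Of 15 integrin subunits 9 were positive, 4 of them under the limit. They were ITGA10, ITGA1 (1.86), ITGB4 (1.21) and ITGB6 (5.00, SE 2.13).

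Genes of antigen presentation had 13 of 20 positive values, 7 of them under an unadjusted p of 0.05, and 6 of these belong to the class II pathway. HLA-DPA1, a class II chain, stood at 5.41, 8.11 and 24.9 CPM in controls, at 0.682, 2.21 and 0.734 with p38i, at 6.10, 0.746 and 1.31 with EZH2i and at 5.86, 11.2 and 2.82 with both. The combination overlapped both the controls and EZH2i, and the interaction was 4.78 (SE 1.15, edgeR adjusted p = 0.113). Without p38i col6 the list held 3 positive members and 1 negative under that limit. Without combination 9-1, or without control 2-1, it held 2 and 0. It held 3 and 1 without EZH2i 6-1 and 4 and 0 without EZH2i 5-4. Macrophage markers, which such genes can accompany, summed to 23.3 to 34.4 CPM in controls and 24.1 to 49.1 in treated libraries.

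Epithelial genes had 14 of 16 positive values and a median of 1.01, with 5 positive and 1 negative under an unadjusted p of 0.05. CLDN4, a tight junction protein, had 0.78 and its relative CLDN7 had -0.75. The cell adhesion gene EPCAM had 1.48. The count of 5 positive members was 10 without control 2-1 and 8 without combination 9-2. It was 2 without control 1-1 or combination 8-1, and 3 without p38i col5, p38i col6, EZH2i 5-4, EZH2i 6-1 or combination 9-1.

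No gene in which the combination exceeded the sum passed the edgeR threshold, and none did with DESeq2 or in any of the other 19 fits. As above, this is a description, because the shared libraries favour falling short in every fit. The 3 with an unadjusted p under 0.05 are named after their values were seen. PTX3, a soluble pattern recognition protein, stood at 7.08, 9.01 and 19.2 CPM in controls, at 21.8, 14.1 and 15.9 with p38i, at 17.9, 24.9 and 13.5 with EZH2i and at 34.3, 99.5 and 81.0 with both. All 3 combination libraries lay above the 9 others. Its changes were 0.50 and 0.65 with the single agents and 2.56 with both (adjusted p = 0.0824), and the interaction was 1.41 (SE 0.587, edgeR adjusted p = 0.324). GLI2, a transcription factor of Hedgehog signalling, stood at 2.45 to 5.24 CPM in the 9 libraries outside the combination and at 10.5, 8.37 and 9.10 with both, for an interaction of 1.16. Its single changes were -0.16 with p38i and 0.42 with EZH2i. SNAI2, a repressor of epithelial genes, stood at 26.4 to 41.0 CPM outside the combination and at 57.4, 59.0 and 51.5 with both, for 0.64. Its single changes were 0.11 and 0.03. In each of the 3 genes the single-agent libraries overlapped the controls. The sums were small in GLI2 (0.25) and SNAI2 (0.14), so there the label of exceeding rests on the sign of a value near 0.

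**Figure D5:**
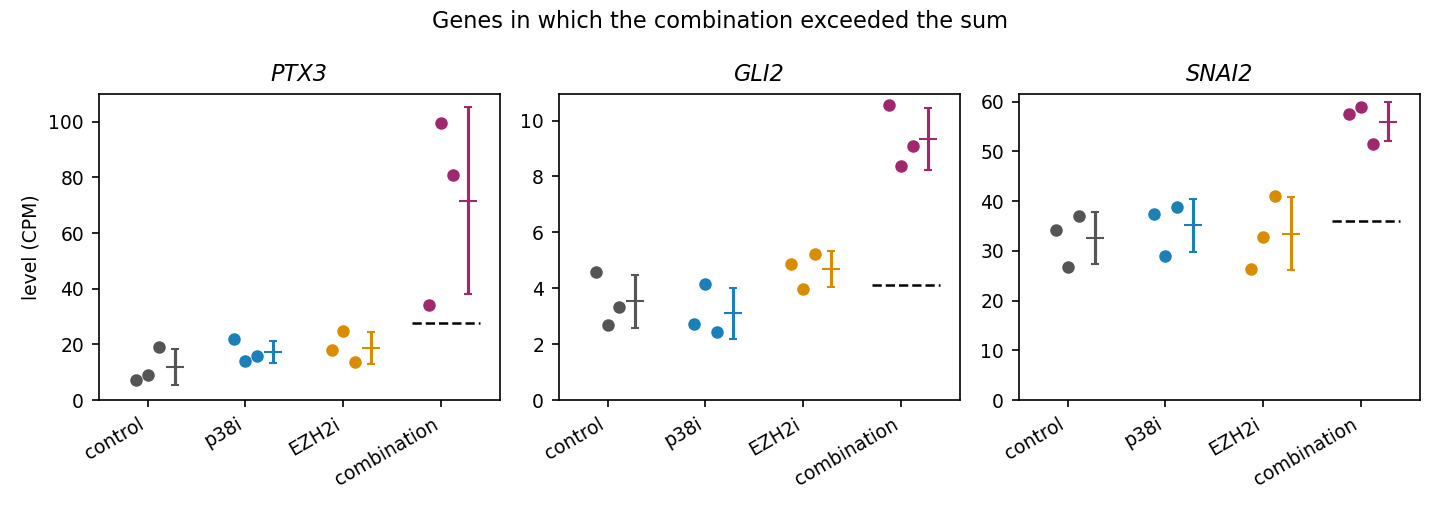
Level in CPM (y axis) of PTX3, GLI2 and SNAI2 in each library by group (x axis), with the mean ± SD of 3 beside the points and the level of multiplied single folds as a dashed line. The combination libraries of each gene lie above the other 9, and none of the interactions passed the adjusted threshold.

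A last pattern set the 6 single-agent libraries against the other 6. In 74 genes (0.591%) every single-agent library lay outside the range of all control and combination libraries, above it in 46 (0.368%) and below it in 28 (0.224%). Of the 23 genes that changed with both single agents, 2 had this pattern, FAM155A and SMAD6. Of the 20 genes with the smallest interaction p in their direction it was seen in CMTM8, BAHCC1, UGT2B7, TIE1, SCN9A and ATAT1 as well. Among the heat shock genes it was seen in HSPA4L.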

How the data were processed

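RNA from 3 tumours in each of 4 groups was sequenced. Per the labels, 1.3 µg of RNA entered each library, and both a SMARTer kit and QuantSeq are named. The submitters' processing notes name Trim Galore 0.5.0, STAR 2.6.0 and the build hg19. How reads were counted, on which annotation and whether by strand is not given in the sources used here. The authors deposited whole-number counts for 25369 gene symbols, and 3 more lines without a gene name held 0 counts.

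Columns were joined to samples by the header numbers in the labels. Both p38i samples without a unique column name column 5, and column 6 is named by none and was assigned by elimination. They are called col5 and col6.

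A quasi-likelihood model of edgeR 4.0.16 (R 4.3.3, robust option, TMM scaling) with 1 term per group was fitted to 12 libraries and the 12514 genes kept by filterByExpr (minimum count 10). F tests were two-sided, and p-values were Benjamini-Hochberg adjusted over all genes tested, with a threshold of 0.05. The biological coefficient of variation was 0.219. Alternatives used DESeq2 1.42.0, limma 3.58.1, other scalings and filters, and each library left out. Replicates within groups differed by more than sampling noise (chi-square per degree of freedom 5.71 to 17.5). The p-values set each contrast against the spread between these tumours within groups, estimated over the 4 groups together.

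Named genes are those past the threshold, the 10 smallest p-values per direction, up to 12 that passed with both single agents, list members with an unadjusted p under 0.01 (otherwise the smallest) and 4 genes of the drug targets. Other genes were named after their values were seen. The members and lists were chosen with earlier results of these data known. In simulated counts for this interaction (12294 genes, 50 changed at each size), edgeR recovered 12% of genes with a log2 interaction of 1, 42% at 1.5, 84% at 2 and 90% at 2.5, with 6 false among 120 calls. All 200 changed genes had a mean of at least 5 CPM, and no single-agent change was simulated. With 120 calls there against 3 here, the adjusted threshold was easier to pass in the simulation. These shares may thus overstate recovery in the real data.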

Additional observations from a re-analysis of the deposited data

Results flagged for a closer look

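The effect of p38i differed with and without EZH2i in the 3 genes past the threshold of the edgeR interaction test. In FAM155A the effect of p38i with EZH2i minus that without was 2.296 on the log2 scale, as p38i alone changed it by -1.52 and the addition of p38i to EZH2i by 0.77. In ITGA10 it was 2.036, from -1.87 alone and 0.17 on top of EZH2i. In HSPH1 it was -1.577, from 0.99 alone and -0.59 on top of EZH2i. The same values hold with the drugs exchanged, since the interaction is symmetric.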

How the results depend on the processing

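Most alternatives changed how many genes passed the interaction test rather than its direction. The count was 3, and 3 again with library totals, with DESeq2 size factors, with limma-voom, without the robust option and with a mean of at least 5 CPM. It was 209 with the DESeq2 Wald test (119 positive, 90 negative), 38 with limma-voom and sample quality weights (15 and 23) and 70 with no filter beyond 1 count (43 and 27). Leaving out 1 library at a time gave 2 to 42. It was 42 without EZH2i 5-3, 12 without control 2-1, 8 without p38i col6, 7 without control 1-1, and 2 without control 1-3, combination 8-1 or combination 9-1. The cause was not tested. In 0 of these fits did a called gene exceed the sum. The interaction and the sum share libraries in each fit, so this count is a description and not evidence.

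For named genes, 1597 of 1716 values kept direction and side of the threshold, 115 passed newly and 3, all of HSPH1, no longer passed. MAPKAPK2 reversed, from -0.13 to 0.01985 without control 2-1, and ran from -0.3391 to 0.01985 with 1 library left out. On the linear CPM scale no named gene changed sign. Without p38i col6, chosen after seeing the data, the hypoxia and glycolysis list had 7 members with an unadjusted p under 0.05 in place of 2.

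Single-agent counts rest on few libraries. The p38i count of 221 was 2 without p38i 3-3 or col6, 7 without col5, 3 without control 1-3 and 568 without control 2-1. The EZH2i count of 27 ran from 2, without EZH2i 5-4 or 6-1, to 125 without control 2-1, and the combination count of 1 ran from 0 to 229, the latter without control 2-1. DESeq2 gave 595, 225 and 148. The 23 genes shared by both agents were not recounted in these fits. With 3 tumours per group and 12% of log2 interactions of 1 recovered in simulation, departures of that size or smaller were mostly not detectable. Larger values missed the threshold too, among them BAHCC1 (2.78), UGT2B7 (-3.11) and TIE1 (-4.89). No paired analysis was possible because the tumour numbers differ in every group.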

Other observations

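Further lists held single genes with small unadjusted p-values and none past the adjusted threshold. Among the proteases and their inhibitors, 4 of 21 values were positive and 4 negative at an unadjusted p under 0.05. MMP2, a gelatinase, stood at 0.416 to 1.50 CPM in controls, 1.02 to 7.34 with p38i, 5.24 to 22.1 with EZH2i and 1.47 to 3.45 with both, with an interaction of -4.45 (SE 1.09). MMP7, matrilysin, stood at 85.3, 20.7 and 4.503 CPM in controls and 0.746 to 6.15 in all treated libraries, with an interaction of 5.03 (SE 1.47). Both rest on few counts. CTSD, a lysosomal protease at 201 to 689 CPM, had 1.25 (SE 0.334).

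Apoptosis genes were split, with 3 positive and 4 negative of 20 at that limit. BCL2, which blocks cell death, stood at 3.75 to 4.74 CPM in controls, 4.43 to 13.9 with p38i, 4.07 to 8.73 with EZH2i and 3.22 to 4.40 with both, with an interaction of -2.01. BAX, its pro-death relative, stood at 82.6 to 95.7 CPM in controls and 67.8 to 73.3 with both, below all 9 other libraries, with an interaction of -0.60 (SE 0.203). PMAIP1 (NOXA) had -0.74 and BID 0.95. Among mesenchymal genes, fibronectin (FN1) had 1.53, SNAI1 had 3.00 at no more than 4.16 CPM, and the collagen cross-linking enzyme LOXL2 had -0.90. LOXL2 rose with p38i (0.94, edgeR adjusted p = 0.0164).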
